A study of Mus musculus with 24 samples.

Results

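miR-31 is a microRNA (miRNA) measured by 1 of the 566 mouse miRNA probes of the NanoString nCounter assay, and it was taken by its probe name, mmu-miR-31, in all 24 samples. The study followed mouse mammary tumors of the JygMC(A) line and their spread to the lung, and asked which miRNAs differ between epithelial and spindle-like tumor areas, metastases and normal tissue. JygMC(A) cells come from a mammary carcinoma of a wild Chinese mouse and carry a mouse mammary tumor virus insertion in Int3/Notch4, and the cells used here also carried GFP and luciferase. They were injected on both sides into the mammary fat pads of female Balb/C nude mice aged 6 to 9 weeks, which lack mature T cells and keep other immune cells. Tissue was taken by laser capture microdissection (LCM) as 5 carcinoma areas and 7 EMT-like areas of primary tumors (PT), 4 lung metastases, 2 normal mammary glands (NMG) and 2 samples of normal lung parenchyma, all in Balb/C nude mice. EMT stands for epithelial-mesenchymal transition, and EMT-like areas hold spindle-shaped cells. The same cells grown without a host gave 2 monolayer cultures and 2 cultures of 3D-spheres of the third generation, kept on ultra-low adherent plates. Replicate 1 of carcinoma, of EMT-like areas and of lung metastasis each carried a label with 3 animals and was counted as 1 sample.

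A miRNA guides Argonaute proteins to messenger RNAs that pair with its seed, and so lowers their stability and translation. miR-31 is known in breast cancer as a suppressor of invasion and metastasis, with integrin alpha subunits, radixin and RhoA among its described targets. In other tissues it has been described as promoting growth.

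The mature strand is shown because it is the RNA that the miR-31 probe was taken to read, and its 7 capitals mark the seed, bases 2 to 8 from the 5′ end. The panel name gives no arm and was read as the 5p strand.
miR-31-5p: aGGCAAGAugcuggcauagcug
In RefSeq (build GRCm38.p6) this strand lies at chr4:88910614-88910635 on the minus strand, and the seed was shared with 0 of the other mature entries among the 1738 of the table. The hairpin that it is cut from is shown with the mature strand, bases 28 to 49 of 106, in capitals.
Mir31 hairpin: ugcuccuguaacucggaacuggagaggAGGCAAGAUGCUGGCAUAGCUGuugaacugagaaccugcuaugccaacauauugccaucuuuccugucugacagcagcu
The hairpin (chr4:88910557-88910662, minus strand) lies within the span of the long noncoding RNA gene Gm49890, and the nearest protein-coding genes are Ifne at 30.4 kb on the side of lower coordinates and Mtap at 227 kb on the other. The other arm of the hairpin, miR-31-3p, had no probe under its name, so miR-31 was read by the mmu-miR-31 probe alone, taken as 5p. The nearest miRNA genes are Mir491, 788 kb away and with a probe at or below the detection limit in all 24 samples, and Mir6402, 2463 kb away and without a probe.

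The deposited values are whole numbers that can fall below 0, and the 6 negative control probes of each lane average about 0, so they were read as probe counts less that average. Summed over mouse miRNAs, carcinoma lanes held 115259 to 164785, EMT-like lanes 111602 to 184501 and metastasis lanes 62583 to 115278. The NMG lanes held 560247 and 525697, the normal lung lanes 590022 and 2335745, the monolayers 46507 and 26420 and the spheres 38689 and 33419. Normal tissue thus gave far more signal per lane than tumor areas, and the cultures gave the least. The detection limit, the mean of the negative controls plus 2 SD, lay between 4.0 and 21.4, and miR-31 was above it in 23 of 24 samples. The exception was lung metastasis 2, with a deposited value of 16 against a limit of 18.2. Values were therefore compared after TMM scaling between lanes (trimmed mean of M values, a factor per lane of 0.403 to 5.63), and all values below are scaled unless called deposited.

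Among primary tumors, miR-31 was 77.7, 70.9, 88.1, 91.2 and 135 in carcinoma areas 1 to 5. The 7 EMT-like areas had a lowest value of 67.9, a median of 104 and a highest of 146. Both kinds of area overlapped over most of their range. In lung metastases 1 to 4 it was 19.8, 30.5, 35.9 and 78.6, so 3 were below every primary area and the fourth lay among the lower ones. The NMG samples had 23.9 and 24.5, and the normal lung samples 58.2 and 52.7. Normal mammary gland was thus lower than every primary area, and normal lung lay between NMG and PT. In culture it was 91.6 and 91.7 in monolayers and 206 and 319.7 in spheres, the latter above all other samples.

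The groups are ordered here from the lowest mean to the highest, with the SD. NMG had 24.2 ± 0.425 (n = 2), lung metastasis 41.2 ± 25.8 (n = 4) and normal lung 55.5 ± 3.90 (n = 2). Next came the monolayer with 91.7 ± 0.0795 (n = 2), carcinoma with 92.5 ± 25.0 (n = 5), EMT-like areas with 109.5 ± 30.4 (n = 7) and the spheres with 263 ± 80.7 (n = 2). Of the 6 neighbouring pairs in this order, 4 had ranges that overlapped: NMG and lung metastasis, lung metastasis and normal lung, the monolayer and carcinoma, and carcinoma and EMT-like areas. Normal lung stayed below the monolayer, and EMT-like areas stayed below the spheres. The place of the normal tissues and cultures in this order depended on the scaling: normal lung averaged 251 when lanes were scaled to the 4 mRNA control probes and 20.3 when scaled to the miRNA total. As a share of all mouse miRNA signal, miR-31 made up 0.0104% and 0.0126% of NMG, 0.0159% and 0.0127% of normal lung, 0.0491% to 0.0745% of carcinoma, 0.0599% to 0.0999% of EMT-like areas and 0.0133% to 0.0468% of lung metastasis. Its share was largest in the cultures, 0.127% and 0.170% of the monolayers and 0.305% and 0.386% of the spheres, where miR-31 ranked 40 and 37 among mouse miRNAs, against 171 and 166 in NMG.

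**Figure D1:**
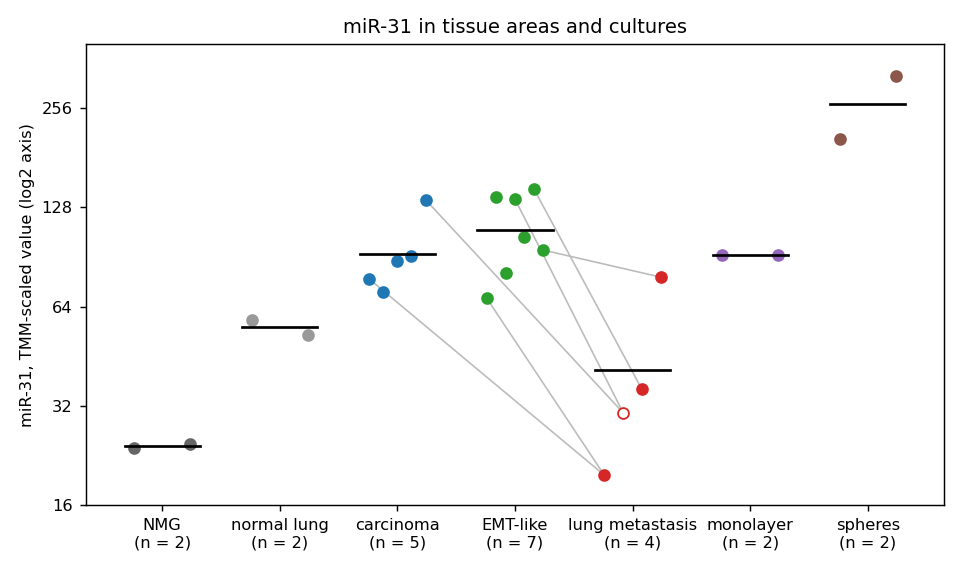
TMM-scaled value of miR-31 (log2 axis) in each of the 24 samples by group, with group means as bars and gray lines that join a lung metastasis to the primary areas of the same animal label. The open point, lung metastasis 2, was below its detection limit; all 6 lines slope down to the metastasis, and the spheres at 206 and 319.7 are the highest samples.

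The first comparison asked whether miR-31 differs between metastases and primary tumors, some of them from animal labels without a metastasis sample. miR-31 was lower in lung metastasis (41.2 ± 25.8, SD, n = 4) than in PT (102 ± 28.4, SD, n = 12), with a fold change of 2.68 on the scale of log2(value + 1). The log2 fold change was -1.42 (SE 0.28, 95% interval -2.0 to -0.85, adjusted p = 0.00304), and miR-31 ranked 8 by p among 583 probes. With the background raised by 2 SD of the negative controls it was -2.98, and -3.30 against EMT-like areas, so the size of the fall depended on how values near the limit were treated. Of these probes, 15 (2.57%) were called lower and 3 (0.515%) higher. In these bulk samples fewer cells of a type and less RNA per cell cannot be told apart. An exact two-sided permutation test of miR-31 alone gave p = 0.00220 (0.0220 adjusted over 10 comparisons). It treated areas of the same animal as separate samples, so its p may be too small. It also ignored which metastases share an animal with primary areas, as did the permutation tests below against each kind of area. In the deposited values all 4 metastases (15, 16, 28 and 54) lay below all 12 primary areas (60 to 184), a separation that 23 of 583 probes (3.95%) showed. After scaling 9 probes (1.54%) separated in this way and miR-31 was not among them, because metastasis 4 at 78.6 lay within the range of PT.

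Against each kind of area alone, miR-31 was 2.45-fold lower in metastasis than in carcinoma (log2 fold change -1.29, SE 0.32, 95% interval -1.96 to -0.62, adjusted p = 0.0451; 5 of 583 probes called lower, 0.858%). It was 2.87-fold lower than in EMT-like areas (log2 fold change -1.52, SE 0.30, 95% interval -2.14 to -0.89, adjusted p = 0.00377; 29 of 583 called lower, 4.97%). The exact permutation p was 0.0238 against carcinoma (0.0694 adjusted over 10 comparisons) and 0.00606 against EMT-like areas (0.0303 adjusted). Of the carcinoma areas 3 of 5 were above every metastasis, and of the EMT-like areas 6 of 7. The difference from carcinoma missed the threshold without carcinoma 1, 3, 4 or 5 or without lung metastasis 1, 2 or 3, with log2 fold changes from -1.35 to -1.01 and adjusted p from 0.0645 to 0.166. The other 2 differences kept their call without any 1 sample, at -1.79 to -1.14 against PT and -1.88 to -1.24 against EMT-like areas.

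Metastases and primary areas of the same animals gave 6 pairs. miR-31 in lung metastasis 1 was 25.4% of that in carcinoma 1 and 29.1% of that in EMT-like 1, both from the label with 3 animals. In metastasis 2 it was 22.6% of carcinoma 5 (135) and 22.5% of EMT-like 4 (136), and in metastasis 3 it was 24.7% of EMT-like 6 (146). In metastasis 4 it was 82.8% of EMT-like 7 (95.01). The metastasis was lower in 6 of 6 pairs, and in these scaled values the ratio was similar in 3 animal labels and nearer to equal in the fourth. Metastasis 2 was below its detection limit, so its ratios are imprecise. The likeness of ratios did not hold with the background raised by 2 SD of the negative controls. There metastasis 1 had 12.6 against 56.6 in carcinoma 1, and metastasis 3 had 12.6 against 196 in EMT-like 6. In the deposited values metastasis 4 had 54 against 126 in EMT-like 7. Over the 4 animal labels the mean log2 difference was -1.55 ± 0.86 (SD, n = 4), with an exact sign-flip p of 0.125, the smallest that 4 pairs allow. This mean ran from -3.25 to -1.33 over its alternatives. With the animal as a fixed block in a fit of the groups compared, the log2 fold change was -1.61 against PT (adjusted p = 0.0719, the highest over its alternatives, which began at 2.08e-04), -2.02 against carcinoma (adjusted p = 0.564, over alternatives from 0.00314 to 0.564) and -1.53 against EMT-like areas (adjusted p = 0.172, over alternatives from 2.01e-04 to 0.172).

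The animals carried either letters or numbers as labels. Within the lettered animals the single metastasis (19.8) lay below the 5 primary areas (67.9 to 137), a log2 difference of -2.06, and an exact permutation test there cannot go below p = 0.167. Within the numbered animals the log2 difference was -1.29 between 3 metastases and 7 primary areas, whose lowest value was 81.2, with an exact permutation p of 0.00833, the smallest possible. This test too treated samples of the same animal as separate, so its p may be too small. The difference thus ran the same way in both sets of animals, of which the lettered one holds a single metastasis.

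Markers of other cell types moved with metastasis, and their part in the lower miR-31 level was not tested. Of 7 epithelial miRNAs 1 was called higher than in PT, miR-203, which restrains stem-like growth of epithelium (log2 fold change 2.62, adjusted p = 0.0167), beside 0.515% of all probes. The median of the list was 2.26, beside 0 over all 583 probes, and at an unadjusted p under 0.05 its count was 6 of 7, all higher, beside 39 of 583 probes higher. The summed level of the list was 4671, 2653, 2915 and 2509 in metastases 1 to 4 and 5385, 2806, 4682, 930.4 and 1161 in carcinoma areas 1 to 5. EMT-like areas had a lowest sum of 59.4, a median of 396 and a highest of 1758. miR-200b, of the family that represses the EMT factors Zeb1 and Zeb2, was the most abundant member in all 3 groups. The epithelial sums of the metastases lay within the range of carcinoma and above the highest EMT-like sum. In miR-31, 3 of the 4 metastases were below both kinds of area. The call of miR-203 was lost without lung metastasis 1 (log2 fold change 2.59, adjusted p = 0.0666) and without lung metastasis 3 (2.30, adjusted p = 0.102). It was also lost without scaling (2.06), with mRNA controls (2.29), with the higher background (2.88), with the animal as a fixed block (3.16) and without the samples that name 3 animals (2.75), so it held in 22 of 29 alternatives (adjusted p from 0.00497 to 0.221). Against carcinoma alone miR-203 was not called (1.07, adjusted p = 0.765) and 0 of 7 epithelial miRNAs were called in limma, as at an unadjusted p under 0.05 (0 of 7). Against EMT-like areas 6 of 7 were called higher (list median 3.66), beside 16 of 583 probes, in a comparison where miR-31 was lower (-1.52).

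Of 5 miRNAs of smooth muscle and stroma, 2 fell in metastasis against PT, miR-199a-3p (log2 fold change -1.44, adjusted p = 0.00711) and miR-199a-5p (-1.39, adjusted p = 0.00538), beside 2.57% of all probes, and the median of the list was -0.42. Its sum was 2082, 1273, 918 and 1489.8 in metastases 1 to 4 and between 1646 and 4173 in PT (median 2416). The most abundant member was miR-145 in metastasis and miR-199a-3p in PT. miR-199a-3p, miR-199a-5p and miR-214 were at or below the detection limit in all 4 cultures, whereas miR-145 of the same list averaged 838 in monolayers and 459 in spheres. Among 4 leukocyte miRNAs, miR-150 of lymphocytes rose (log2 fold change 2.65, adjusted p = 5.0e-05), beside 0.515% of all probes. In the same list miR-223 ran the other way without being called (-0.65, adjusted p = 0.395). The median of the list was 0.52, and the sums were 408, 887, 715 and 476 in metastases 1 to 4 against a median of 314 in PT (lowest 229.6, highest 812).

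Of 3 erythroid miRNAs, miR-451 rose in metastasis (log2 fold change 1.48, adjusted p = 0.00215), beside 0.515% of all probes, and was the most abundant member. At an unadjusted p under 0.05, 2 of the 3 were higher. The median of the list was 1.48 and its sums were 348, 424, 533 and 403 in metastases 1 to 4, all above the highest PT sum of 297. The share of all probes with every metastasis above every primary area was not counted, so this separation of sums has no background beside it. None of the 2 endothelial, 3 skeletal muscle and 4 ciliated airway miRNAs was called in limma. At an unadjusted p under 0.05 the count was 0 of 2 for the endothelial list, 1 of 3 for skeletal muscle (lower) and 3 of 4 for ciliated airway (2 higher and 1 lower), where 39 of all 583 probes were higher and 51 lower. Endothelial miRNAs, led by miR-126-3p, summed to 3114, 2589.6, 819 and 2445 in metastases 1 to 4 and to a median of 1935 in PT, with a list median of 0.08. The muscle list summed to 15.3 to 30.6 in metastasis and 10.5 to 66.5 in PT (list median 0.16), and the ciliated list to 1239.7 to 2071 and 792 to 1676 (list median 0.03), most of it miR-34c.

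The next comparison asked how tumor areas differ from normal mammary gland, whose samples share no animal label with the tumor areas. miR-31 was 3.62-fold higher in carcinoma than in NMG (log2 fold change 1.86, SE 0.40, 95% interval 1.02 to 2.69, adjusted p = 0.00127) and 4.24-fold higher in EMT-like areas (log2 fold change 2.08, SE 0.38, 95% interval 1.28 to 2.88, adjusted p = 2.74e-04). Both comparisons share the same 2 NMG samples. Of 583 probes, 32 (5.49%) were called higher in carcinoma and 139 (23.8%) lower. In EMT-like areas 26 (4.46%) were higher and 119 (20.4%) lower. miR-31 was therefore among the smaller set of probes that rose. All 12 primary areas were above both NMG samples after scaling, as for 35 of 583 probes (6.0%). In the deposited values carcinoma (60 to 99) overlapped NMG (58 and 66) while EMT-like areas (71 to 184) did not, and the 7 probes (1.20%) with every primary area above NMG did not include miR-31. Exact permutation gave p = 0.0476 for carcinoma and 0.0278 for EMT-like areas, each the smallest possible, and 0.0952 and 0.0694 after adjustment over 10 comparisons.

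The size of the rise over NMG rested on the scaling, since in carcinoma the middle of the 583 log2 fold changes lay at -0.68 with TMM and at -1.83 without scaling. Relative to that median, miR-31 was higher by 2.15 to 2.60 in carcinoma and by 2.08 to 2.71 in EMT-like areas over 6 scalings. Taken as they stand, its log2 fold changes spanned 0.32 to 2.28 in carcinoma and 0.93 to 2.71 in EMT-like areas, with 4 of 6 scalings past the threshold in each. The sums of several marker lists differed between NMG and PT. Endothelial miRNAs summed to 17649 and 10971 in NMG and 1067 to 2626 in PT, those of smooth muscle and stroma to 15164 and 16236 against 1646 to 4173, those of leukocytes to 2499.9 and 5613 against 229.6 to 812, and erythroid ones to 8118 and 8509 against 83.7 to 297. In both kinds of area 2 of 2 endothelial, 4 of 5 stromal, 3 of 4 leukocyte and 3 of 3 erythroid miRNAs fell against NMG, with miR-126-3p, miR-199a-3p, miR-142-3p and miR-451 the most abundant in NMG, beside 23.8% and 20.4% of all probes. The remaining leukocyte miRNA, miR-142-5p, was called higher in carcinoma (log2 fold change 1.21, adjusted p = 0.0213) and not called in EMT-like areas (0.60, adjusted p = 0.278). The ciliated list went the other way, with sums of 448 and 413 in NMG and 792 to 1676 in PT. In each kind of area 1 of its 4 members was called higher, beside 5.49% of all probes in carcinoma and 4.46% in EMT-like areas. This list also summed to 1522 to 2612 in the cultures, which hold no host tissue, so it is not read here as a measure of ciliated cells. Of epithelial miRNAs 1 of 7 fell in carcinoma and 4 of 7 in EMT-like areas, and of skeletal muscle miRNAs 2 of 3 and 1 of 3. The part of these cell types in the difference of miR-31 was not tested.

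Carcinoma and EMT-like areas were compared to ask whether miR-31 marks either form of tumor cell. The log2 fold change of carcinoma against EMT-like areas was -0.23 (SE 0.28, 95% interval -0.81 to 0.36, adjusted p = 0.770), within the spread of both groups, and 1 of 583 probes was called in either direction (0.172%). This fold change was -0.61 without scaling, -0.78 with the raised background and -0.07 with a term for the label series. It passed the threshold in 0 of 25 alternatives. The exact permutation p was 0.328. In the 4 animal labels with both areas the log2 differences were 0.17, -0.01, 0.19 and -0.94, a mean of -0.15 ± 0.54 (SD, n = 4; exact sign-flip p = 0.875, smallest possible 0.125). The last value came from the animal of carcinoma 2 and EMT-like 2 (70.9 against 137), and without it the mean was 0.12. In these scaled values miR-31 was thus nearly equal in both areas of 3 animal labels. The deposited values of these were 70 in carcinoma 1 against 71 in EMT-like 1, 73 in carcinoma 4 against 93 in EMT-like 3, and 99 in carcinoma 5 against 141 in EMT-like 4. Over the 7 alternatives that left out no animal the mean paired difference ran from -0.66 to -0.14. Within the lettered animals the log2 difference was -0.29 (3 against 2 areas, exact permutation p = 0.70, smallest possible 0.10) and within the numbered animals 0.02 (2 against 5 areas, exact permutation p = 1.0, smallest possible 0.0476).

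Normal lung shares no animal label with the metastases. Of these, 3 of 4 (19.8, 30.5 and 35.9) had less miR-31 than both normal lung samples and 1 (78.6) had more. The log2 fold change was -0.60 (SE 0.42, 95% interval -1.46 to 0.26, adjusted p = 0.250) in a comparison where 287 of 583 probes (49.2%) were called in either direction. The exact permutation p was 0.333, with 0.0667 the smallest possible. The direction depended on the scaling and ran from -3.08 with mRNA controls to 0.86 with the 100 most abundant miRNAs. Without lung metastasis 4 it was -0.96 and past the threshold (adjusted p = 0.0365, over alternatives from 5.08e-05 to 0.557). Normal lung held 67772 and 70140.5 of summed endothelial and 49121 and 55994 of summed erythroid signal, far above the metastases, and its part in this difference was not tested. miR-31 in normal lung was above NMG by 1.16 on the log2 scale (SE 0.48, 95% interval 0.17 to 2.16, adjusted p = 0.115; 0.29 to 2.41 over 6 scalings, called with mRNA controls alone), where 68 of 583 probes (11.7%) were called, and an exact permutation test of 2 against 2 samples cannot go below p = 0.333.

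Tumor and normal tissue therefore stood in a different relation at each site, PT (102) above NMG (24.2) and metastasis (41.2) near normal lung (55.5). The difference between these differences was -2.59 on the log2 scale (SE 0.55, 95% interval -3.74 to -1.44, adjusted p = 0.00267). Of 583 probes, 63 (10.8%) were called lower in this contrast and 4 higher, around a median of -0.38. For miR-31 it ran from -4.12 to -1.67 over 6 scalings and passed the threshold in 6 of 6.

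**Figure D2:**
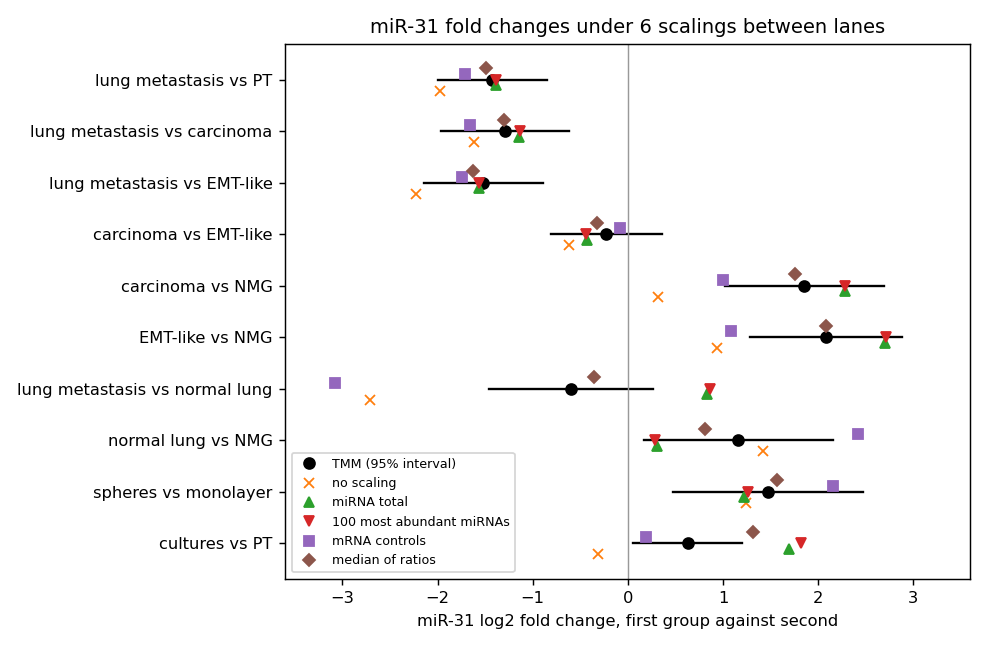
Log2 fold change of miR-31 (horizontal axis) in 10 comparisons under 6 ways of scaling between lanes, with the 95% interval of the TMM fit as a line; PT stands for carcinoma and EMT-like areas together. The metastasis values lie left of 0 against PT, carcinoma and EMT-like areas under all 6, while those of metastasis against normal lung run from -3.08 to 0.86.

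The cultures show miR-31 in the tumor cells without host tissue. Deposited values were 59 and 45 in the monolayers and 118 and 129 in the 3D-spheres, which enrich for cells that grow without attachment. The mean was 263 ± 80.7 in spheres (SD, n = 2) and 91.7 ± 0.0795 in the monolayer (SD, n = 2). The log2 fold change was 1.47 (SE 0.48, 95% interval 0.48 to 2.47) and missed the threshold (adjusted p = 0.101), where 27 of 583 probes (4.63%) were called in either direction. Both sphere samples were above both monolayers, as for 50 of 583 probes (8.58%), and an exact permutation test of 2 against 2 cannot go below p = 0.333. miR-31 was thus higher in each sphere sample, on few samples and at sums of mouse miRNAs of at most 46507. Against PT all 4 cultures together differed by 0.63 (SE 0.28, 95% interval 0.05 to 1.20, adjusted p = 0.0992), where 177 of 583 probes (30.4%) were called, and exact permutation gave p = 0.0577. This direction turned without scaling (-0.32), and the difference passed the threshold without monolayer 1 (0.87, adjusted p = 0.0377) or monolayer 2 (0.87, adjusted p = 0.0422), over alternatives from 2.97e-06 to 0.907. Epithelial miRNAs were nearly absent in culture: 5 of 7 were at or below the limit in all 4 samples, with sums of 96.3 and 112 in monolayers and 83.6 and 54.5 in spheres. Endothelial sums were 0 in all 4 cultures against a mean of 1927 in PT, and mean erythroid and leukocyte sums were 7.79 and 116 against 168 and 372. The mean stromal sum was 691 against 2466. Other lists were higher in culture, with mean skeletal muscle and ciliated sums of 106.9 and 1934 against 33.0 and 1196.5. Of the leukocyte list, miR-142-5p was also higher in culture, at 77.1 against 39.7. The part of host cells in the difference between cultures and PT was not tested.

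Beside miR-31 stand other miRNAs known to restrain or promote metastasis. Of 15 suppressing miRNAs 1 rose in metastasis against PT, miR-203 as above, beside 0.515% of all probes, with a list median of 0.53 beside 0 over all 583 probes. miR-31 and miR-203 thus moved in opposite directions between PT and metastasis. At an unadjusted p under 0.05, 7 of the 15 were higher and 3 lower, where 39 of all 583 probes were higher and 51 lower. Against EMT-like areas 7 were called higher and 2 lower, beside 16 and 29 of 583 probes. The 2 lower ones, which ran as miR-31 did, were miR-335-5p (-1.66, adjusted p = 0.0177) and miR-206 (-1.80, adjusted p = 0.0408). Against PT neither was called (-1.34, adjusted p = 0.0630, and -1.35, adjusted p = 0.144). Of 10 promoting miRNAs 1 fell, miR-10b, known to promote invasion, from 94.1 ± 38.0 in PT (SD, n = 12) to 12.5 ± 11.6 in metastasis (SD, n = 4), and it was above its limit in 1 of 4 metastases (log2 fold change -3.53, adjusted p = 0.00105), while 2.57% of all probes fell. Its size is imprecise, at -2.55 without lung metastasis 1 and from -4.64 to -2.29 over all alternatives. The median of the promoting list was 0.01. In the same comparison miR-31 fell by 1.42 on the log2 scale.

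Against NMG, where miR-31 rose, 3 of 15 suppressing miRNAs fell in carcinoma (list median -0.33 beside -0.68 over all probes) and 6 of 15 in EMT-like areas (list median -2.34 beside -0.30). Of all 583 probes 23.8% and 20.4% fell, so in carcinoma the list fell no more often than all probes did. The 7 epithelial miRNAs all belong to this list too. Of them miR-141, miR-200a, miR-203 and miR-205 fell in EMT-like areas, as did miR-126-3p of the endothelial list. The lowest log2 fold changes were those of miR-205, a miRNA of basal mammary epithelium, at -5.02 in carcinoma and -5.12 in EMT-like areas. Of 10 promoting miRNAs, 4 rose and 2 fell in each kind of area, with list medians of 1.07 in carcinoma and 1.38 in EMT-like areas, where 5.49% and 4.46% of all probes rose. The 4 that rose were miR-9, which targets E-cadherin (log2 fold change 6.85 in carcinoma and 6.34 in EMT-like areas, but above its limit in 1 of 2 NMG samples), miR-155 (1.67 and 1.60), miR-183 (2.54 and 1.77) and miR-221 (1.91 and 2.12). The size for miR-9 is imprecise: carcinoma gave 7.69 without NMG 1 but 6.02 without NMG 2, EMT-like areas 7.18 and 5.51. Without scaling their log2 fold changes in carcinoma included 0.10 for miR-155 and 0.35 for miR-221, as that of miR-31 was 0.32. miR-31, a suppressor by its described role, thus rose against NMG, as 4 of 10 promoting miRNAs did. These 4 were named because they rose, while 2 of the list fell and the rest were not called. The call of miR-221 held in 13 of 18 alternatives in carcinoma and 16 of 20 in EMT-like areas, and that of miR-183 in 15 of 18 and 15 of 20. Without scaling and with mRNA controls neither of them, nor miR-155, was called in either kind of area. The call of miR-221 was also lost in carcinoma without NMG 1 (1.76, adjusted p = 0.155) or NMG 2 (2.06, adjusted p = 0.0926) and in EMT-like areas without NMG 1 (1.97, adjusted p = 0.106) or NMG 2 (2.27, adjusted p = 0.0563), and that of miR-183 in EMT-like areas without NMG 1 (1.77, adjusted p = 0.151) or NMG 2 (1.77, adjusted p = 0.153). Of the suppressing miRNAs, miR-29b lost its call without NMG 1 or NMG 2 in carcinoma (-2.25, adjusted p = 0.141, and -2.39, adjusted p = 0.113) and in EMT-like areas (-2.10, adjusted p = 0.173, and -2.24, adjusted p = 0.143). In EMT-like areas miR-141 (-3.99, adjusted p = 0.0666, and -3.14, adjusted p = 0.165) and miR-200a (-4.18 with all samples, -3.52 without EMT-like 7; -4.72, adjusted p = 0.11, and -3.63, adjusted p = 0.251) did so as well, and miR-203 without NMG 2 (-2.89, adjusted p = 0.115). Of the promoting miRNAs that fell, miR-107 lost its call in EMT-like areas without NMG 2 (-1.48, adjusted p = 0.183), and miR-10b in carcinoma without carcinoma 1 or 2 or either NMG sample (-2.75 to -2.35, adjusted p from 0.0528 to 0.197).

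The miRNAs most like miR-31 were sought by Pearson correlation of log2 values, as a description of samples that share groups, animals and lane factors. Over all 24 samples 195 miRNAs could be compared, with a median r of -0.220. miR-221 was the most like miR-31 (r = 0.817, Spearman rho = 0.813), and within the 12 primary areas r was 0.856. let-7e (r = 0.671, rho = 0.608), miR-2146 (r = 0.646, rho = 0.501), miR-149 (r = 0.619, rho = 0.654) and miR-804 (r = 0.578, rho = 0.388) followed. Within primary areas r was lower for let-7e, at 0.367, and 0.623 for miR-149. For miR-2146 and miR-804 r within primary areas was -0.515 and -0.654, so their likeness to miR-31 did not hold within PT. Both rose in spheres over monolayers (means of 718 against 52.1 and of 1115 against 71.3), where miR-31 went from 91.7 to 263. Least like miR-31 were miR-150 (r = -0.710, rho = -0.585), miR-203 (r = -0.704, rho = -0.754) and miR-141 of the miR-200 family (r = -0.653, rho = -0.751). Within the primary areas r was 0.575, of opposite sign, for miR-150, -0.391 for miR-203 and -0.283 for miR-141. Over the alternatives r ran from 0.357 to 0.850 for miR-2146 and from 0.253 to 0.806 for miR-804, against 0.788 to 0.909 for miR-221. With scaling to the mRNA controls the 3 least like miR-31 were near 0, at 0.0184, 0.0345 and 0.0909.

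miR-31 and miR-221 had a similar order of levels. For miR-221 the mean and SD were 49.3 ± 7.41 for NMG (n = 2), 107 ± 88.2 for lung metastasis (n = 4), 200.2 ± 91.4 for carcinoma (n = 5) and 233 ± 102 for EMT-like areas (n = 7). Its difference between metastasis and PT was -1.27 and missed the threshold (adjusted p = 0.102), while that of miR-31 passed it. In metastases 1 to 4 miR-221 was 81.6, 82.1, 30.8 and 234, and the sample with the most miR-31, metastasis 4, also had the most miR-221.

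Within the 16 tumor samples 192 miRNAs were compared, with a median r of 0.0104. The 5 most like miR-31 were miR-149 (r = 0.901, rho = 0.794), miR-10b (r = 0.897, rho = 0.865), miR-24 (r = 0.876, rho = 0.856), miR-130a (r = 0.854, rho = 0.841) and miR-27b (r = 0.851, rho = 0.806). Within the 12 primary areas alone r with miR-31 was 0.623, 0.737, 0.867, 0.770 and 0.547 in the same order. It was thus nearly unchanged for miR-24 and lower for the other 4. miR-10b, miR-149 and miR-27b were called lower in metastasis against PT, as miR-31 was, with log2 fold changes of -3.53, -1.78 and -1.48, beside 2.57% of all probes. All 5 were chosen by likeness to miR-31 over samples that include this contrast, so a shared fall follows in part from the choice. miR-27b lost its call with the animal as a fixed block (-1.44, adjusted p = 0.0603), its only loss over 29 alternatives. miR-24 (-0.65, adjusted p = 0.340) and miR-130a (-0.49, adjusted p = 0.632) were not called. The call of miR-149 held in 24 of 29 alternatives and was lost with the animal as a fixed block (-1.98, adjusted p = 0.0796), without the samples that name 3 animals (-1.61, adjusted p = 0.0932) and without lung metastasis 1 (-1.44, adjusted p = 0.138), 2 (-1.66, adjusted p = 0.0717) or 3 (-1.60, adjusted p = 0.114), and metastasis 4, the highest in miR-31, was also the highest in miR-149 at 96.1 against 11.9, 19.1 and 16.7 in metastases 1 to 3. miR-149 was above its detection limit in 2 of 4 metastases, so its low values are imprecise, and without metastasis 4 its log2 fold change was -2.42. miR-10b and miR-31 differed in the normal gland, where miR-10b averaged 384 ± 75.5 (SD, n = 2) and miR-31 was low.

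**Figure D3:**
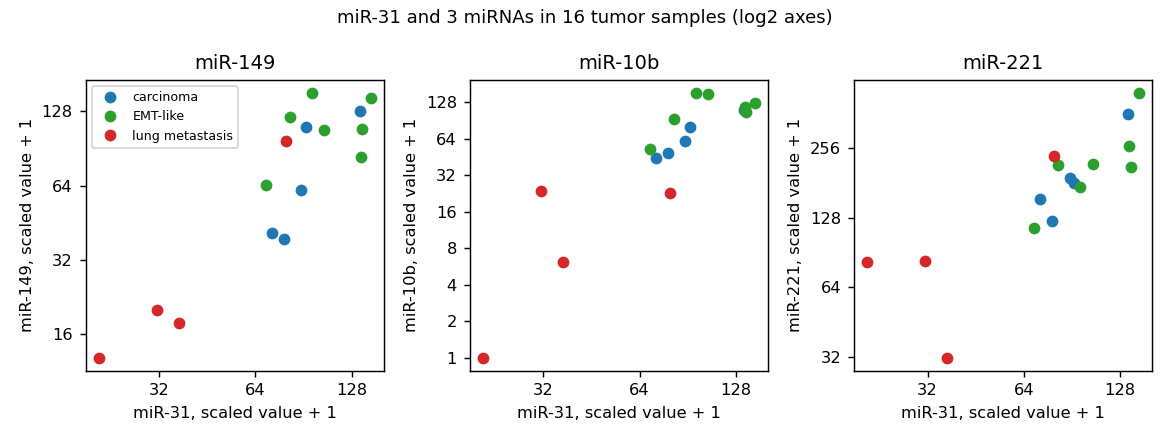
miR-149, miR-10b and miR-221 (vertical axes) against miR-31 (horizontal axis) as scaled values plus 1 on log2 axes in 16 tumor samples, colored by group. In 3 of 4 metastases miR-31 is below every primary area, and metastasis 4 lies beside the primary areas in miR-149 and miR-221.

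The mature strands of the miRNAs most like miR-31 are shown to compare their seeds, given in capitals, with that of miR-31; all come from RefSeq, build GRCm38.p6. Panel names without an arm were read as the strand that is usually the more abundant, as the sequences of the probes were not at hand. miR-2146 had no entry under its name.
miR-149-5p: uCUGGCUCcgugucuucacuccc
miR-10b-5p: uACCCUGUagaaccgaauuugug
miR-24-3p: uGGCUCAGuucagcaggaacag
miR-130a-3p: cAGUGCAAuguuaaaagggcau
miR-27b-3p: uUCACAGUggcuaaguucugc
miR-221-3p: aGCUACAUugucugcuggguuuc
let-7e-5p: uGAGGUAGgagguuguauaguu
miR-804: uGUGAGUUguuccucaccugga
These 8 strands and miR-31-5p have 9 distinct seeds. No other mature entry among the 1738 of the table has the seed of miR-31, so none of these 8 strands could have shared it. Their genes lie on other chromosomes than that of miR-31: miR-149 at chr1:92850381-92850403 (plus strand), miR-10b at chr2:74726074-74726096 (plus), miR-130a at chr2:84741116-84741137 (minus), miR-804 at chr11:50357799-50357820 (minus), miR-221 at chrX:19146307-19146329 (minus) and let-7e at chr17:17830366-17830387 (plus). miR-27b (chr13:63300760-63300780, plus) lies next to a copy of miR-24 (chr13:63301251-63301272, plus), and another copy of miR-24 lies at chr8:84208875-84208896 (plus). miR-31 at chr4:88910614-88910635 thus shared no chromosome with them.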

How the data were processed

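miRNAs of 24 samples were measured on nCounter lanes with 566 mouse and 33 viral miRNA probes. The deposited values are whole numbers (lowest -20), and the 6 negative controls of each lane average about 0 in them. They were therefore read as counts from which the authors had subtracted the mean of the negative controls, a unit other than counts; lane totals and controls differ, so no scaling between lanes was seen in them. The submitters' processing notes name Partek without its role. The background step and scaling of this assay are not given in the sources used here. Because the values are not counts, the test planned for counts was replaced, and a count model listed among the alternatives was not run.

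Values were floored at 0, scaled by TMM (30% trimmed from each end of the log ratios, 5% from each end of the levels) and taken as log2(value + 1). limma 3.58.1 (R 4.3.3, moderated with trend) fitted all 7 groups together, with Benjamini-Hochberg adjustment over 583 probes that were above 0 in at least 1 sample, and a probe was called at an adjusted p under 0.05. miR-31 alone was also compared by exact two-sided permutation of samples, adjusted over 10 comparisons, and by exact sign flips over animals. Fold changes understate those of low probes. Python 3.11.15 with numpy 2.4.6, pandas 2.3.3, scipy 1.17.1 and matplotlib 3.10.9 was used, and the fit was tested on simulated data.

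Named miRNAs were miR-31, the 5 highest and 3 lowest by Pearson r with it over all samples and the 5 highest over tumor samples (above the detection limit in at least 12 of all samples or 8 of the tumor samples), its neighbours in the genome, and called members of 2 metastasis lists with 15 and 10 miRNAs and 7 lists of cell type markers. These members and lists were chosen with earlier results of these data known.

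Samples of the same animal were paired by their labels. Deviations from group means over 196 miRNAs had a median correlation of 0.103 within an animal label (10 pairs), 0.0827 between other animals of the same label series (32 pairs) and -0.137 between series (41 pairs). Tests over areas treat areas of the same animal as separate, so their p-values may be too small. The labels call the other samples biological replicates and do not say whether they came from separate animals or cultures. Normal lung 1 and NMG 1 share a sample number in their labels, as do normal lung 2 and NMG 2, so each pair may come from the same animal; the random block included these numbers.

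Alternatives were 5 other scalings (none, the miRNA total, the 100 most abundant miRNAs, the 4 mRNA control probes and a median of ratios), only probes that reached 20 in 2 or more samples, a background raised by 2 SD of the negative controls, a pseudocount of 10, fits of no groups beyond those compared, a random or fixed block for the animal or replicate number, a term for the label series, and each sample left out in turn with lane factors kept. Cell type markers outside the other named miRNAs were not refitted this way. Leaving out the samples that name 3 animals was chosen after seeing the data.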

Additional observations from a re-analysis of the deposited data

Results flagged for a closer look

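The difference of miR-31 between tumor and normal tissue was not the same in the gland and in the lung. Lung metastasis against normal lung minus PT against NMG gave a log2 fold change of -2.59 in a test of the difference itself (adjusted p = 0.00267). The median over all 583 probes was -0.38, with 63 called lower and 4 higher. The contrast includes normal lung against NMG, 1.16 from 2 against 2 samples and not called in limma (adjusted p = 0.115). Metastasis against normal lung alone ran from -3.08 to 0.86 over 6 scalings.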

How the results depend on the processing

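Over 13 miR-31 comparisons and paired differences, 230 of 265 alternatives kept both direction and side of the threshold, and 5 reversed the direction. The cause of each change below was not tested. Against PT miR-31 in lung metastasis was past the threshold in 28 of 29 alternatives (log2 fold change -2.98 with the raised background to -1.14), against EMT-like areas in 23 of 24, and the difference of differences in 31 of 31 (-4.12 to -1.67). With the animal as a fixed block the values were -1.61 against PT, -2.02 against carcinoma and -1.53 against EMT-like areas, all short of the threshold; a fixed block could be fitted for 6 comparisons and changed no other call of miR-31 among them, and a random block changed none. The difference of metastasis from carcinoma also missed the threshold with mRNA controls (-1.66), with only the groups compared (-1.29) and without the samples that name 3 animals (-1.06). Against NMG the threshold was missed in carcinoma without scaling (0.32), with mRNA controls (1.0) and with the raised background (1.40), and in EMT-like areas without scaling (0.93) and with mRNA controls (1.08). Metastasis against normal lung was past the threshold without scaling (-2.71), with mRNA controls (-3.08) and with the raised background (-2.14), and turned to 0.83 with the miRNA total and 0.86 with the 100 most abundant miRNAs. Normal lung against NMG passed with mRNA controls (2.41) and was 0.30 with the miRNA total and 0.29 with the 100 most abundant miRNAs; spheres against the monolayer passed with the median of ratios (1.57). Cultures against PT turned without scaling (-0.32) and with the raised background (-0.27), and passed with the miRNA total (1.69), the 100 most abundant miRNAs (1.82), the median of ratios (1.31) and only the groups compared (0.63). Leaving out 1 sample gave -1.79 to -1.14 against PT, -1.66 to -1.01 against carcinoma (short of the threshold without any 1 of 7 of the 9 samples), -1.88 to -1.24 against EMT-like areas, -0.37 to -0.14 for carcinoma against EMT-like areas, 1.71 to 1.94 and 2.01 to 2.19 for carcinoma and EMT-like areas against NMG, -0.96 to -0.32 for metastasis against normal lung (past the threshold at -0.96 without lung metastasis 4), 1.09 to 1.23 for normal lung against NMG, 1.16 to 1.79 for spheres, 0.28 to 0.87 for cultures (past the threshold at 0.87 without either monolayer) and -2.95 to -2.31 for the difference of differences; a lone sample of a pair was assumed to vary like the other groups. Leaving out 1 animal gave paired differences of -1.98 to -1.36 for metastasis and -0.26 to 0.12 for carcinoma minus EMT-like. The number of probes called moved from 18 to between 6 and 41 against PT, from 8 to between 0 and 19 against carcinoma, from 45 to between 0 and 68 against EMT-like areas, from 1 to between 0 and 19 for carcinoma against EMT-like areas, from 171 to between 102 and 326 and from 145 to between 98 and 339 against NMG, from 287 to between 151 and 389 against normal lung, from 68 to between 0 and 160 for normal lung against NMG, from 27 to between 0 and 49 for spheres, from 177 to between 135 and 238 for cultures, and from 67 to between 36 and 147 for the difference of differences. For other called miRNAs 648 of 755 alternatives kept the call and 1 reversed, let-7e in carcinoma against NMG without scaling (-0.25). Of 363 alternatives for correlations with miR-31, 31 moved and 3 reversed, the latter all with mRNA controls (miR-141 0.0909, miR-203 0.0345 and miR-150 0.0184). Groups of 2 samples, metastases close to the detection limit, and lane totals that differed between tissue and culture limit the precision of every value given here.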
